A study of Mus musculus with 2 samples.

Results

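The centromere-near ends of the mouse autosomes were described from the macroH2A1.1 regions that start under 8 Mb on chromosomes 1 to 19 of the mm9 build. These were 1385 of the 49047 autosomal regions, or of 50887 regions in the whole list. The members were chosen by position alone. No listed region started within the first 3 Mb, which are not assembled, so each end is a window of 5 Mb and the 19 ends span 95 Mb. Regions of the same autosomes that start from 8 Mb on, 47662 in number, are called the rest. The list came from C2C12 cells, an established mouse myoblast line whose cells fuse into myotubes after serum withdrawal. Chromatin immunoprecipitation and sequencing (ChIP-seq) gave 1 library made with an antibody specific for macroH2A1.1 and 1 library of input chromatin without antibody, both from wild-type cells. The sample source is labelled myoblast, while the short sample names carry DM, the abbreviation for differentiation medium. The labels alone thus do not fix the state of the cells, while the study's own account places the profile in differentiated myotubes.

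MacroH2A1 is a large variant of histone H2A. Alternative splicing yields macroH2A1.1, the isoform whose macrodomain can bind ADP-ribose. Mouse autosomes are telocentric, so that each has its centromere at the end where the coordinates begin. The centromere and its flanks consist of satellite repeats packed into constitutive heterochromatin, and are largely missing from assembled genomes. The windows studied here are the first assembled sequence on the arm, and their own repeat content was not analysed here. MacroH2A variants are known for their presence on repressed chromatin and for a part in the organization of heterochromatin in the nucleus.

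Regions at the ends covered 5.89 Mb, which was 6.20% of the 95 Mb. In the rest the covered share was 9.31%. There were 14.6 regions per Mb at the ends and 20.6 per Mb in the rest. The ends held 123969 ChIP reads and 40680 input reads within regions. Their pooled enrichment, ChIP over input after scaling for library size, was 2.10-fold (95% exact interval 2.08 to 2.13), against 2.12-fold (2.120 to 2.127) in the rest. The ends were thus covered less by regions, while regions that were called there had about the same enrichment. All listed regions had passed the same FDR limit of the caller, which compares ChIP with input reads. Like enrichment among them was therefore partly fixed by the calling, and does not show like levels of macroH2A1.1. Intervals of folds, densities and density ratios describe counting error of reads alone. Whether PCR copies of a molecule count as separate reads is not given by the list, and the study's methods state a redundancy threshold. With 1 library per group there is no replicate error, and no difference between the ends and the rest has a test.

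The covered share differed widely among the 19 ends. At the low side were 6 autosomes with under 2% of the window in regions. Chromosome 14 had no region at all before chr14:8796401-8798600, which is 5796 kb into the assembled sequence. The share was 0.276% on chromosome 7, 0.548% on chromosome 1 and 0.712% on chromosome 8. It was 1.34% on chromosome 3 and 1.44% on chromosome 9. The same 6 autosomes were covered at 2.75 to 12.1% in the rest, and each end reached less than 0.2 times the share of its own autosome. An empty window means only that the caller listed nothing there in this pair of libraries, and some macroH2A1.1 may go unseen.

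A further 7 ends, those of chromosomes 4, 5, 6, 12, 16, 17 and 19, had covered shares between 3 and 6%. Between 8 and 14% were the ends of chromosome 10 (8.83%), 18 (9.33%), 13 (11.6%), 2 (12.2%) and 11 (13.3%). The end of chromosome 15 stood apart at 27.7%. It held 253 regions, or 18.3% of all members, whereas chromosome 15 held 7.30% of the regions in the rest. Together with the ends of chromosomes 11, 2, 13, 18 and 10, it accounted for 929 members (67.1%) and for 70.3% of the covered length.

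Within the same autosome, the end was covered less than the rest in 15 of 19 cases. The exceptions were chromosome 2, with 12.2% at the end and 8.61% in the rest, chromosome 15 with 27.7% and 19.9%, chromosome 11 with 13.3% and 11.2%, and chromosome 18 with 9.33% and 8.99%. The median ratio of end to rest was 0.523. It was lowest on chromosome 1 among ends with a region, at 0.0545, and highest on chromosome 2, at 1.42. The same 4 of 19 counts resulted when regions per Mb were compared in place of covered length.

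**Figure D1:**
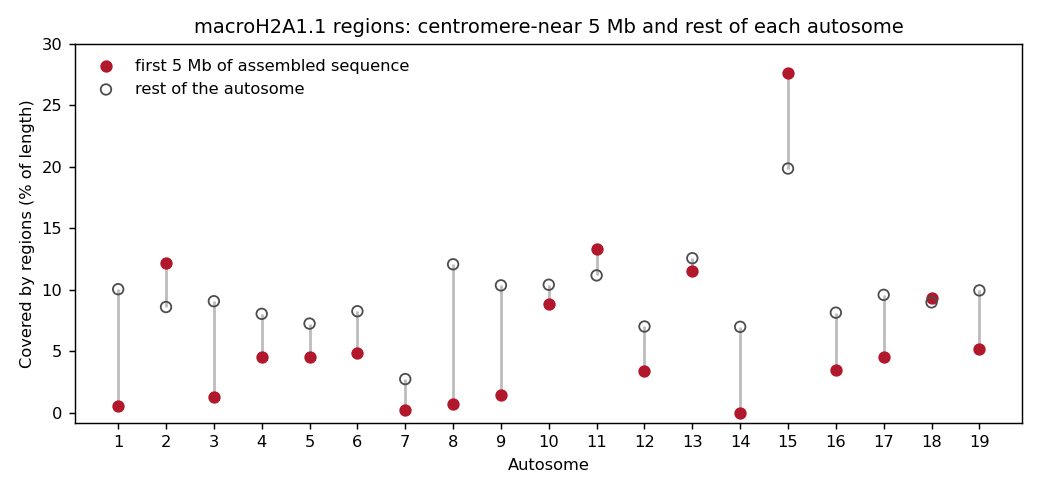
Share of length covered by macroH2A1.1 regions on each autosome (percent, y axis). Filled points are the first 5 Mb of assembled sequence and open points are the rest of the same autosome, joined by a line; the filled point lies lower on 15 of 19 autosomes, at 0% on chromosome 14, and highest on chromosome 15 at 27.7%.

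How unusual such shares were along the chromosomes was described by cutting every autosome into consecutive windows of 5 Mb. Under 2% was covered in 6 of 19 end windows (31.6%) and in 74 of the 453 other windows (16.3%). Over 12% was covered in 3 end windows (15.8%) and in 130 other windows (28.7%). The median share was 4.54% for end windows (quartiles 1.39 and 9.08%) and 7.95% for the others (3.54 and 13.2%). The quartiles of the end windows were thus no farther apart than those of the others, and the highest shares were 27.7% and 46.0%. The end window was the least covered of its autosome on chromosome 8, of 25 windows, and on chromosome 9, of 24 windows. On chromosome 14 it was 1 of 5 windows without a region. On no autosome was the end the most covered window. Even on chromosome 15 it ranked 5 of 20, and on chromosomes 2 and 11 it ranked 9 of 35 and 8 of 23.

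The lower coverage was not limited to the window that defines the ends. The next 5 Mb, from 8 to 13 Mb, had 1577 regions and a covered share of 6.81%, and the stretch from 13 to 30 Mb had a share of 6.72%. From 30 Mb on the share was 9.88%. When each end was compared with the 8 to 13 Mb stretch of the same autosome in place of all the rest, it was covered more in 9 of 19 autosomes. In bins of 1 Mb pooled over the autosomes, the share was 4.56% in the bin next to the unassembled sequence. It was 6.19%, 8.29%, 5.71% and 6.26% in the following bins of the ends. All 5 bins lay below the 9.31% of the rest. So did 20 of the 22 bins between 8 and 30 Mb, and the exceptions were the bins starting at 24 Mb (10.4%) and at 25 Mb (12.8%). Without chromosome 15 the ends were covered at 5.01% and the rest at 8.86%. The 5 bins of the ends then had 3.46%, 6.36%, 6.73%, 3.74% and 4.76%. The 5 bins from 8 to 13 Mb had 7.58%, 5.32%, 8.23%, 5.41% and 3.65%. The closeness of the pooled shares of these 2 stretches thus depended in part on chromosome 15. The opposite ends of the autosomes, taken as the last 5 Mb before the highest region end, had a covered share of 10.8%.

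**Figure D2:**
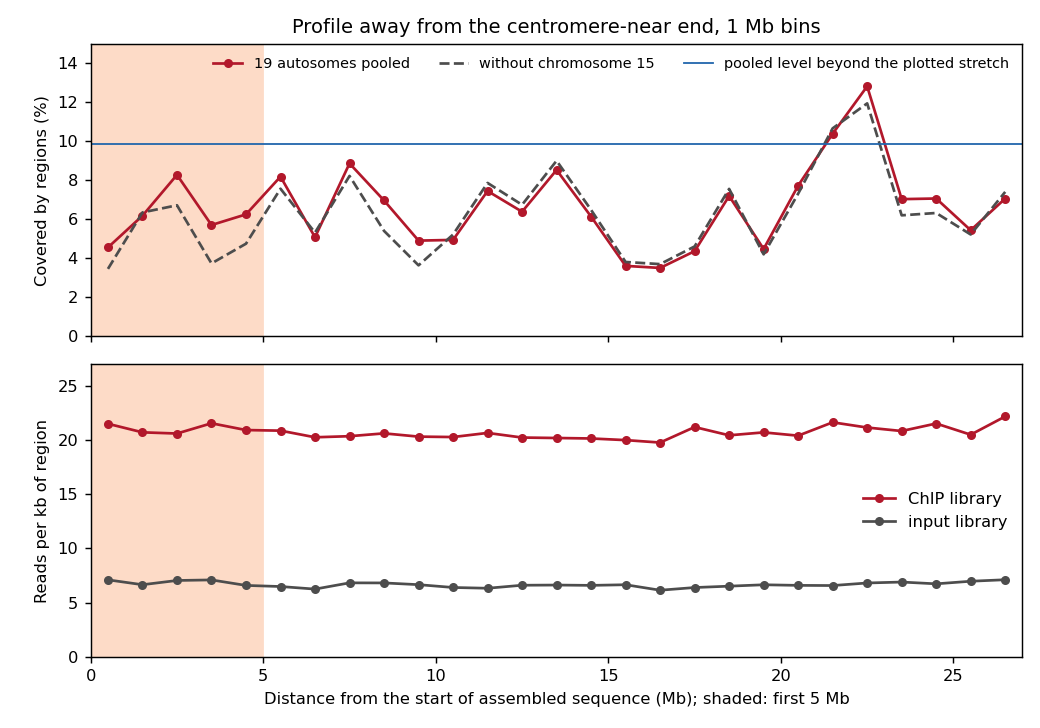
Profile of the 19 autosomes away from the centromere-near end in bins of 1 Mb, with the first 5 Mb shaded. The upper panel gives the share covered by regions (percent) with and without chromosome 15 and, as a horizontal line, the 9.88% of the sequence beyond the plotted stretch; the lower panel gives ChIP and input reads per kb of region, which stay between 19.8 and 22.2 and between 6.15 and 7.12.

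The first bin rested on few autosomes. Between 3 and 4 Mb, 45 of 203 regions were on chromosome 15, 31 on chromosome 10, 27 on chromosome 11 and 26 on chromosome 2, and 4 autosomes had none. The share of that bin was 3.46% without chromosome 15. A start within 100 kb of the assembled edge was found on 3 autosomes. Chromosome 4 began with chr4:3007001-3011600 (130 ChIP and 44 input reads, 2.04-fold, 95% exact interval 1.44 to 2.94). Chromosome 17 began with chr17:3087801-3091800 (78 and 19 reads, 2.83-fold, 1.70 to 4.95). On chromosome 10 the list began with chr10:3029401-3031800 (47 and 18 reads, 1.80-fold, 1.03 to 3.29) and 7 more regions followed up to 3089000. The widest of these was chr10:3047001-3057600, with 221 ChIP reads, 99 input reads and 1.54-fold enrichment (1.21 to 1.97). Of the other autosomes, 12 had their first region between 100 kb and 1 Mb from the edge, and 4 had it farther away. Those 4 were chromosomes 3, at 1615 kb, 1, at 1733 kb, 9, at 2293 kb, and 14.

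Regions within the ends were grouped rather than evenly spread. Among 95 bins of 1 Mb, 17 (17.9%) were empty, 24 (25.3%) had 20 or more, and the median bin had 9. In the rest 18.6% of 2304 bins had no region, 42.8% had 20 or more, and the median bin had 15. In the 418 bins from 8 to 30 Mb, 24.6% had no region, 32.5% had 20 or more, and the median bin had 8.5. Crowded bins were thus less frequent at the ends than in the rest as a whole, with a smaller gap to the adjoining sequence, whose median bin was close to that of the ends. The fullest bin of the ends was chromosome 15 from 5 to 6 Mb, with 76 regions. It was followed by 2 bins with 63 regions, on chromosome 15 from 6 to 7 Mb and on chromosome 11 from 7 to 8 Mb, and by chromosome 13 from 5 to 6 Mb with 60. A bin of 10 regions, from 4 to 5 Mb, interrupted the crowded stretch on chromosome 15. On chromosome 13, 40 regions between 6 and 7 Mb were followed by 1 region in the next bin.

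**Figure D3:**
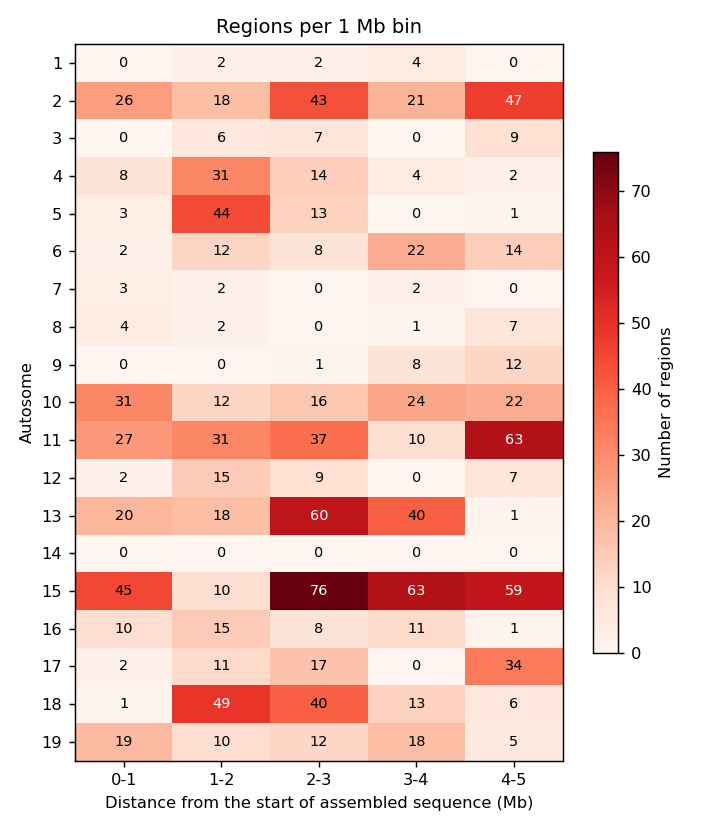
Number of macroH2A1.1 regions in each 1 Mb bin of the 19 ends (color and printed count), by autosome (rows) and distance from the start of assembled sequence in Mb (columns). Chromosome 15 has the fullest bin with 76 regions, chromosome 14 is empty throughout, and 17 of the 95 bins hold no region.

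Stretches of 500 kb or more without a region numbered 40 and took up 45.6 Mb, or 48.0% of the windows. They were cut off at the limits of the windows. No such total is given for the rest, so this total does not by itself set the ends apart. Empty bins were no more frequent at the ends (17.9%) than in the rest (18.6%) or from 8 to 30 Mb (24.6%). Outside chromosome 14, the longest such stretch was 2456 kb on chromosome 12, from 5292801 to 7748400. Next came 2293 kb on chromosome 9 and 2112 kb on chromosome 8, from 4226401 to 6338800. The ends of chromosomes 11, 15 and 19 had no such stretch. Neighbouring members lay a median of 6800 bp apart (quartiles 2200 and 23200 bp), and neighbours in the rest 5400 bp (1600 and 17200 bp). Spacings of 5 kb or less made up 42.8% at the ends and 48.5% in the rest.

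When members closer than 10 kb were joined, 587 domains were left, of which 40 (6.81%) were 50 kb or wider. The share in the rest was 8.49%. The widest joined domain was chr15:6827801-7040400, which spanned 212.6 kb and joined 14 regions that filled 89.2% of it. Its 5367 ChIP and 1746 input reads gave 2.12-fold. A domain of 187.2 kb followed on chr18:4730001-4917200, with 20 regions filling 75.9% of it and a higher enrichment, 2.65-fold. Another lay at chr15:3534601-3687000, with 152.4 kb, 13 regions and 1.99-fold. The domains at chr5:4595401-4721400 (126.0 kb) and chr2:7056001-7175600 (119.6 kb) were looser, since regions filled 50.6% and 54.8% of them.

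Single members had a median width of 3400 bp (quartiles 2400 and 5000 bp), and regions of the rest 3600 bp (2600 and 5200 bp). On individual autosomes the median width of the end was smaller than that of the rest in 10 cases, equal in 6 and larger in 2, among the 18 with a member. The larger values were on chromosome 12 (4600 against 3600 bp, from 33 members) and chromosome 6 (3800 against 3600 bp). Over 20 kb wide were 9 members (0.650%) and 0.833% of the rest. The 5 widest members lay on chromosomes 15, 18 and 12. The widest, chr15:6888401-6930000, spanned 41.6 kb and was enriched 2.97-fold (95% exact interval 2.63 to 3.35) from 1441 ChIP and 335 input reads. Its neighbour chr15:6853601-6885800 spanned 32.2 kb with 923 and 304 reads and 2.09-fold (1.84 to 2.39). These 2 belong to the widest joined domain above and their intervals do not overlap. The others were chr15:3551401-3577000 (25.6 kb, 1.93-fold, 1.67 to 2.24), chr18:4763801-4789000 (25.2 kb, 3.57-fold, 2.93 to 4.37) and chr12:7772201-7795400 (23.2 kb, 2.25-fold, 1.86 to 2.74).

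Read density within regions was then compared, because the number of input reads sets what can be called and is the denominator of the enrichment. Regions of the ends held 6.89 input reads per kb (95% exact Poisson interval 6.83 to 6.96) and 21.0 ChIP reads per kb (20.9 to 21.1). In the rest these densities were 6.99 (6.98 to 7.0) and 21.52 (21.50 to 21.54). The input density was lower at the end than in the rest in 13 of 18 autosomes, and the ChIP density in 14 of 18. This did not hold against the adjoining stretch from 8 to 13 Mb, where input density was higher at the end in 10 of 17 autosomes and ChIP density in 9 of 17. The medians over the 18 autosomes differed little, with 6.50 and 6.67 for input and 20.4 and 21.1 for ChIP. Input density outside called regions is not given by the list.

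A few ends departed from this. On chromosome 17 the end had 5.74 input reads per kb, the lowest of the ends, and the rest 7.13, a ratio of 0.805 (95% exact interval 0.761 to 0.850). Its ChIP density of 21.1 was close to the 21.8 of the rest, and its median enrichment was 2.48-fold against 2.15-fold. Chromosome 19 went the other way, with 7.72 input reads per kb at the end and 6.61 in the rest (ratio 1.17, 1.12 to 1.22), ChIP densities of 22.2 and 20.8, and median enrichments of 1.99-fold and 2.22-fold. On chromosome 15 input was dense at the end (8.28) as well as in the rest (8.38, ratio 0.988, 0.969 to 1.01). The end of chromosome 8 had 6.49 input reads per kb and the rest 9.40. Without the stretch from 80 to 100 Mb, which was set apart after its values were seen, the rest of chromosome 8 had 6.58 input reads per kb, close to its end, and a covered share of 7.08%, still above the 0.712% of the end. The end of chromosome 7 rested on 7 regions with 90 input reads, and its density of 6.52 had an interval of 5.24 to 8.02.

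**Figure D4:**
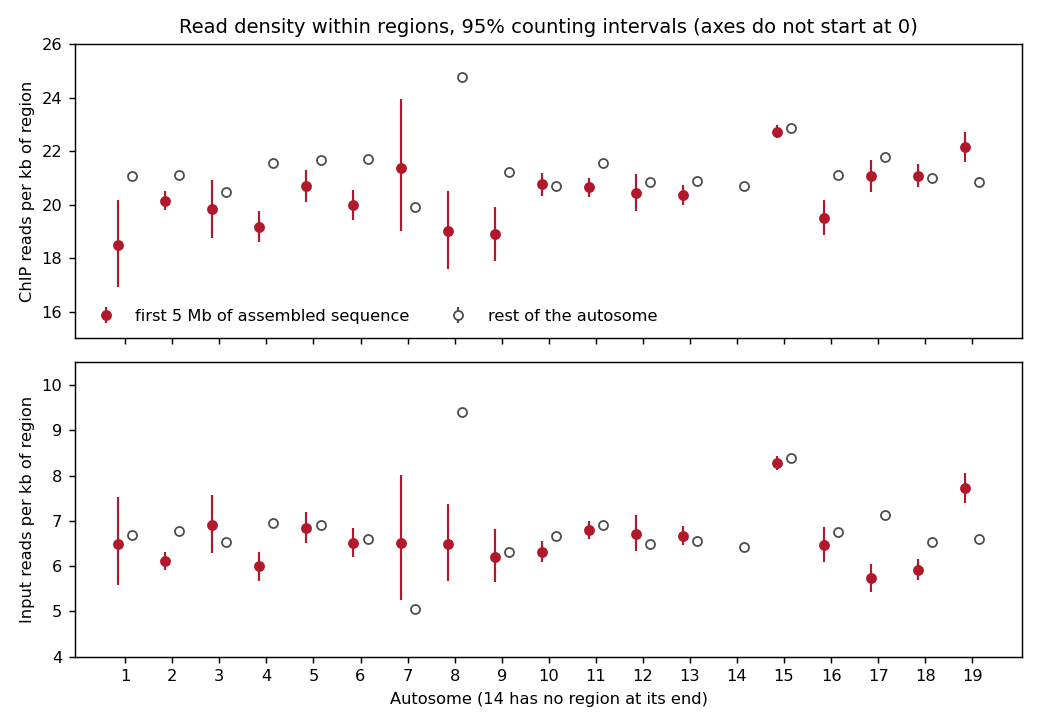
ChIP reads (upper panel) and input reads (lower panel) per kb of region for each autosome, with 95% exact Poisson intervals for counting error; the axes do not start at 0. Filled points are the first 5 Mb of assembled sequence, from 18.5 to 22.7 ChIP reads and 5.74 to 8.28 input reads per kb, and open points are the rest of the autosome, whose intervals are mostly smaller than the symbols.

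The enrichment of single members ranged from 1.14-fold to 20.7-fold, with a median of 2.18-fold and quartiles at 1.74-fold and 2.81-fold. The rest had a median of 2.21-fold (1.75 and 2.87). An enrichment of 2-fold or more was reached by 817 members, or 59.0% (95% exact interval 56.3 to 61.6%), against a background of 61.2% over all autosomal regions. For 4-fold or more the counts were 106 members, 7.65% (6.31 to 9.18%), and a background of 8.31%. Under 1.5-fold were 163 members, 11.8% (10.1 to 13.6%), and a background of 11.4%. The intervals of these shares take regions as independent, although many lie close together and all share the same libraries. When the ChIP reads of each region were set against its input reads in an exact binomial test, which compares this pair of libraries and not conditions, 1240 members (89.5%) had a Benjamini-Hochberg adjusted p of 0.05 or less, against 90.1% of all autosomal regions. The regions had been listed from these same reads, so a high share in the binomial test was largely fixed in advance and is no separate support. All of these shares lay near their background.

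The small difference in enrichment turned with chromosome 15. Its 253 members had a median of 1.84-fold, the lowest of the 18 ends, and 37.2% of them reached 2-fold. Without chromosome 15, 63.9% of the members reached 2-fold and the median was 2.26-fold, while the values for the rest without chromosome 15 were 62.5% and 2.24-fold. By autosome, the median enrichment was higher at the end in 7 and lower in 11 of 18 cases, with differences in log2 from -0.21 on chromosome 1, which had 8 members, to 0.21 on chromosome 17. The highest medians of an end were 2.48-fold on chromosome 17, with 64 members, and the same on chromosome 7 with 7. They were followed by chromosomes 2 and 10 (both 2.39-fold) and 18 (2.36-fold). These 3 and chromosome 17 had 71.6 to 73.4% of their members at 2-fold or more.

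**Figure D5:**
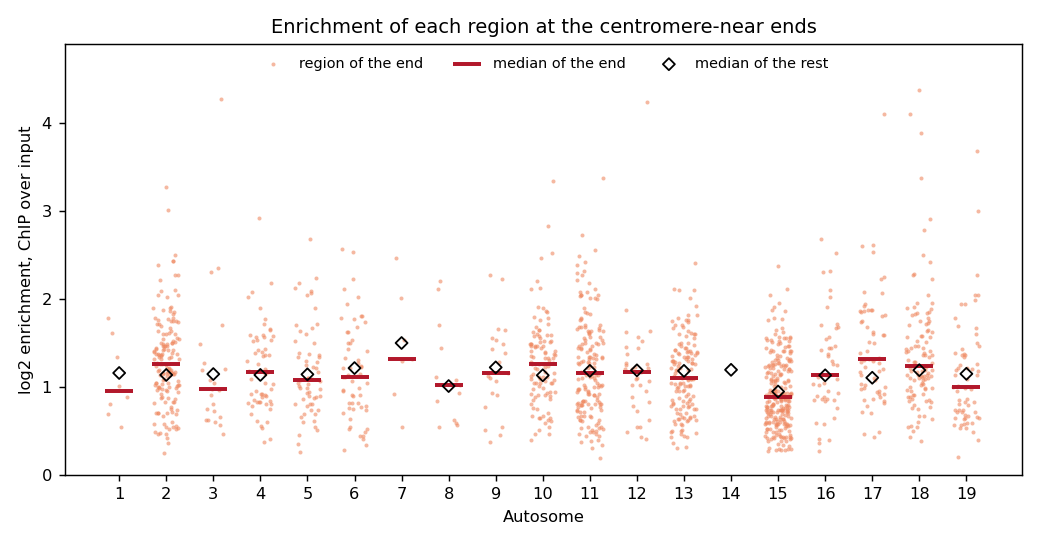
log2 enrichment of ChIP over input for each of the 1385 members (points, spread sideways at random) by autosome. Bars are medians of the ends and diamonds medians of the rest; the medians of the ends run from 1.84-fold on chromosome 15 to 2.48-fold on chromosomes 7 and 17, and the quartiles of all members are 1.74-fold and 2.81-fold.

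At like input density the median enrichment of the ends lay close to that of the rest, among regions that had all passed the FDR limit of the caller. Autosomal regions were split at the quartiles of input reads per kb (5.0, 6.41 and 7.94). In the lowest set, members had a median of 3.34-fold and the rest 3.38-fold. The medians were 2.37-fold and 2.39-fold in the next set, 1.94-fold and 1.97-fold in the following one, and 1.58-fold and 1.57-fold in the highest. The median widths were 3000, 3800, 3600 and 3600 bp for members and 3000, 3800, 3800 and 3600 bp for the rest. The members were spread over these sets at 25.3%, 22.4%, 26.4% and 25.9%.

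Of the members with at least 4 input reads, chr17:4626001-4627400 was the most enriched, with 17.2-fold (95% exact interval 8.58 to 40.5) from 200 ChIP and 8 input reads. Its ChIP density of 143 reads per kb was also the highest of the members. After it came chr2:6095801-6098800 with 9.66-fold (3.57 to 36.7), chr19:3421001-3422400 with 8.001-fold (3.24 to 25.6), chr4:5354001-5355000 with 7.59-fold (2.76 to 29.1) and chr18:5418001-5421200 with 7.52-fold (4.06 to 15.5). Only the last of these 4 had more than 5 input reads, namely 11 beside 120 ChIP reads, and the interval of each of them overlapped that of the region on chromosome 17.

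Another 12 members (0.866%) had 3 or fewer input reads, and none had 0. In the rest 0.789% of regions had 3 or fewer. These 12 were 400 to 1800 bp wide with 25 to 56 ChIP reads, and their ratios of 6.44-fold to 20.7-fold had lower interval limits between 1.99-fold and 5.01-fold. Of these, 4 were on chromosome 18, at chr18:4263801-4264600, chr18:5933601-5934600, chr18:6156401-6157000 and chr18:7118201-7119600. The others lay singly at chr2:7138001-7139400, chr3:7709801-7710600, chr5:4486601-4487400, chr10:6843201-6845000, chr11:3946401-3947400, chr12:4417601-4418000, chr16:7016801-7017600 and chr19:5125801-5127600. The region on chromosome 12 was the narrowest of them, at 400 bp, and had 55 ChIP and 2 input reads, a ratio of 18.97-fold (5.01 to 161).

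At the other extreme were the members with the most input reads per kb. The highest, chr15:7002401-7003800, had 20.0 input reads per kb, was enriched 1.35-fold (95% exact interval 0.845 to 2.22) and lies inside the widest joined domain. It was followed by chr19:6417401-6418400 with 15.0 per kb and 1.56-fold (0.829 to 3.09), chr16:6990001-6993800 with 13.4 and 1.204-fold (0.844 to 1.73), chr11:5047401-5057000 with 13.2 and 1.14-fold (0.911 to 1.43), and chr11:7094801-7097000 with 13.2 and 1.31-fold (0.820 to 2.13). The intervals of these 5 members included 1, and in the exact binomial test their adjusted p lay between 0.0983 and 0.167.

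The limit at 8 Mb cut through crowded sequence on chromosome 11. The last member before it, chr11:7997001-8008200, reached 8200 bp beyond the limit and had 247 ChIP and 63 input reads (2.70-fold, 2.04 to 3.63). The first region past it, chr11:8009001-8012200, had 56 and 19 reads (2.03-fold, 1.19 to 3.62). Pooled over autosomes, the bin before the limit had 290 regions, a covered share of 6.26% and a median enrichment of 2.25-fold, and the bin after it 376 regions, 8.19% and 2.32-fold.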

How the data were processed

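Per the labels and the study's methods, single reads were trimmed and aligned to mm9 with Bowtie2 2.0.6 (submitters' processing notes), and enriched regions were called with SICER (the list is named after epic, its re-implementation). The list has its regions on a 200 bp grid with gaps from 800 bp, both finer than the window and gap that the methods state, so the settings behind the list are not fixed here. The deposited counts are unscaled ChIP and input reads per region. The deposited log2 enrichment is ChIP over input divided by 1 library factor, recomputed here as 1.45. Each region's p-value and FDR were set by the authors' caller, with a highest FDR of 0.0499 in the list. Library totals were not analysed here.

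Positions are given 1-based. Covered shares were taken over 3 to 8 Mb (clipped at 8 Mb) and from 8 Mb to the highest region end. Fold intervals (95%) were derived from exact Clopper-Pearson limits on the share of ChIP reads, density intervals exact Poisson, and ratio intervals exact conditional on the summed reads. Intervals for shares of members were Clopper-Pearson limits over regions. Regions were named by rule: starts under 3.1 Mb, and the 5 extremes of enrichment, width and input density. The domains, the crowded bins and the regions beside the limit were added after their values were seen. The exact binomial test was adjusted (Benjamini-Hochberg) over all 50887 regions. Members and lists were chosen with earlier results of these data known. The scripts (Python 3.11.15, pandas 2.3.3, scipy 1.17.1) were tested on simulated data. An mm9 sequence or annotation was not used here, so no gene is named.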

Additional observations from a re-analysis of the deposited data

How the results depend on the processing

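Of 80 values recomputed under alternatives, 46 stayed close (counts within 1.5 times, shares within an exact binomial interval) and 34 moved. For the covered share that interval took steps of 200 bp as independent. It was therefore too narrow, and small changes of this share were labelled as moved. The number of members was 491 with the limit at 5 Mb, 2962 at 13 Mb, 587 after joining within 10 kb, 744 at middle input densities (between the quartiles) and 817 with a 2-fold filter. Their covered share was 5.38%, 6.51%, 9.10%, 3.40% and 3.44% in the same order, and 5.997% at an FDR of 0.01, 5.70% in the exact binomial test, 6.93% measured from the first region and 5.01% without chromosome 15. The pooled share of the rest is given for the last of these alone, at 8.86%. The other values are therefore not to be set against the 9.31% of the rest in the main setting. After joining, 3 of 19 ends were covered more than the rest of their autosome. Filters remove regions and joining fills gaps by construction. The share of members at 2-fold or more was 65.9% in the binomial test, 62.2% after joining, 65.5% at middle input densities and 63.9% without chromosome 15.

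Some counts of autosomes also moved. The number with a higher median enrichment at the end was 7 of 18 in the main setting. It stayed within 1.5 times that share under every alternative run for it, but this band reaches to both sides of an equal split. The number was 6 of 18 at an FDR of 0.01, 9 of 18 after joining or with a 2-fold filter, and 10 of 19 with the limit at 13 Mb. Its direction was thus not settled. Against the stretch from 8 to 13 Mb, the end was higher in 9 of 19 autosomes in covered share, in 10 of 17 in input density, in 9 of 17 in ChIP density and in 7 of 17 in median width. Against 8 to 30 Mb it was covered more in 7 of 19. With the limit at 5 Mb these counts were 2 of 19, 8 of 17, 6 of 17 and 5 of 17, and with the limit at 13 Mb the median width was larger in 1 of 19. After joining, input density and ChIP density were each higher at the end in 8 of 18 and median width in 5 of 18. At middle input densities, input density was higher in 11 of 18. In the binomial test, ChIP density was higher in 2 of 18 and median width in 4 of 18. The causes of these shifts of the counts were not tested.

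Under the alternatives run for it, the number of autosomes with a higher covered share at the end was 2 to 9 of 19; it was not recomputed without chromosome 15 or with crossing regions taken whole. Leaving out chromosome 15, comparing with 8 to 30 Mb and leaving out part of chromosome 8 were chosen after seeing the data. No paired analysis was possible because there is a single library per group, and leaving out a replicate was not run for the same reason. Counting intervals were wide where an end held few regions, as on chromosome 7, with 5.24 to 8.02 input reads per kb from 7 regions.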

Other observations

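Chromosome X, which is not among the autosomes, had 25 regions with a start under 8 Mb. They covered 1.76% of its first 5 Mb of assembled sequence, and regions from 8 Mb on covered 4.18% of the remainder. The median enrichment was 2.47-fold and 2.24-fold, with 5.71 and 6.01 input reads per kb. Its end was thus covered more than those of chromosomes 1, 3, 7, 8, 9 and 14 and less than those of the other 13 autosomes.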
